A study of Mus musculus with 10 samples.

Results

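The 8 genes described here carry lactate and glucose across cell membranes or help such carriers reach the membrane, and they were chosen by symbol: Slc16a1, Slc16a3, Slc16a7, Bsg, Emb, Slc2a1, Slc2a3 and Slc2a8. All 8 were found in both tables of RNA-seq values, among 17816 genes listed for the Sertoli cells at 7 days after birth and 20007 listed for the adult testes. The day 7 table held 2 libraries of Rnf20 Flox/Flox controls, which the labels call WT, and 2 libraries of Amh-Rnf20-/- mice, in which Cre driven by the Amh promoter of Sertoli cells removes the floxed part of Rnf20, a gene for a histone H2B ubiquitin ligase. The adult table held 3 libraries of whole testis labelled WT and 3 labelled RNF20 conditional knockout. The exact age and the Cre driver of the adult animals were not given in the labels, and this adult experiment is not described in the study's text. The growth field of the labels names adult tissue for every library, those of day 7 included, whereas the titles and the study's methods give day 7. In the study's methods 3 individuals per group are named for day 7, and 2 per group were analysed here. The labels do not say that the libraries came from separate animals, so the p-values measure the spread between these libraries only.

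Germ cells inside the seminiferous tubules live largely behind the blood-testis barrier, and Sertoli cells take up glucose, break it down and hand lactate to them. Glucose enters through facilitative transporters of the Slc2a (GLUT) family, and lactate leaves or enters together with a proton through monocarboxylate transporters of the Slc16a (MCT) family. The MCT proteins need a glycoprotein partner, basigin (Bsg) or embigin (Emb), to reach the plasma membrane.

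Levels are given as FPKM, fragment counts scaled by transcript length and library size, which can be set side by side between genes. Groups were compared on the rounded estimated counts with edgeR's quasi-likelihood test, scaled by TMM (trimmed mean of M-values), and p-values were adjusted by Benjamini-Hochberg over all genes tested in the table. Log2 fold changes are Amh-Rnf20-/- over control at day 7 and labelled knockout over labelled control in adult testis, and are given with their standard error (SE). A gene was called at an adjusted p below 0.05. Each library held 17477268 to 17705347 counts at day 7 and 15431912 to 16574144 in adult testis.

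Several facts about the libraries bear on these genes. Rnf20 had FPKM values of 16.6 and 16.0 in the day 7 controls and of 10.3 and 12.6 in the Amh-Rnf20-/- cells, but of 4.89, 3.32 and 4.09 in the adult libraries labelled control and of 9.16, 5.76 and 9.85 in those labelled knockout. Its log2 fold change in the adult table was 0.12 (SE 0.27, adjusted p = 0.688), and with total-count scaling it was 0.97 (adjusted p = 0.0168). On the FPKM scale the targeted gene was higher, not lower, in each adult library labelled knockout. The counts cover the whole gene, including exons outside the floxed part. The day 7 cells were adherent cells kept in culture and passaged. Their 16 Sertoli cell markers summed to 1884 to 2071 FPKM in the controls and 994 to 1537 in the Amh-Rnf20-/- libraries, against 1969 to 2090 and 3645 to 3694 for 7 peritubular myoid cell markers and 2165 to 2254 and 3373 to 3975 for 7 fibroblast markers. The 10 spermatogonia markers summed to 206 to 212 FPKM and 142 to 147 in the same order. In the adult testes, 12 spermatid markers summed to 127242 to 196114 FPKM in the libraries labelled control and 15.7 to 147 in those labelled knockout, and 7 Leydig cell markers to 4044 to 5640 and 65035 to 89587. The sums went from 42.4 to 56.4 FPKM up to 1337 to 3445 for the fibroblast markers, from 56.5 to 66.3 up to 1156 to 1579 for 9 macrophage markers and from 89.0 to 128 up to 673 to 3176 for 5 red blood cell genes. These 3 sums were highest in the first library labelled knockout, as were Slc16a3 and Slc2a1. The sums of the endothelial and peritubular myoid cell markers were also highest there. The Leydig cell sum was lowest there, at 65035 FPKM against 89587 and 72500, and so was the Sertoli cell sum. Of the 5 red blood cell genes, Alas2 went the other way, from 9.30 to 13.9 FPKM down to 3.67 to 7.52. In such bulk RNA, fewer cells of a type and less RNA per cell cannot be told apart. The part of these shifts in the values below was not tested. By the chi-square per degree of freedom between the counts of 2 libraries, the first Amh-Rnf20-/- library lay further from the day 7 controls (64.3 and 62.3) than the second did (24.8 and 22.9). The first adult library labelled knockout lay further from the others of its group (95.0 and 128) than these did from each other (23.0).

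The regions upstream of 3 members are printed first, because the carriers Slc16a1, Slc16a3 and Slc2a1 rose in the adult table. They come from RefSeq on GRCm38.p6, all on the plus strand, and end before the first annotated exon downstream. Promoter windows of 250 bases before to 50 bases after the gene start were found for 5 of the 8 members, Slc2a8 and Emb being the other 2. Each window was searched on both strands for ACGTG, the core of the sequence bound by hypoxia-inducible factors, and for CACGTG, the E-box of basic helix-loop-helix factors, which contains ACGTG on both strands. Capitals mark these letters.
Slc16a1 (chr3:104638414-104638663): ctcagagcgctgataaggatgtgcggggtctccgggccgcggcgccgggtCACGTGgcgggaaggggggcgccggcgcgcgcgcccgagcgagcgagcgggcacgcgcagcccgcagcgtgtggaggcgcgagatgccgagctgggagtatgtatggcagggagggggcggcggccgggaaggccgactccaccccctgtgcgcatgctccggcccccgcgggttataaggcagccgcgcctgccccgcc
Slc16a3 (chr11:120948817-120949052): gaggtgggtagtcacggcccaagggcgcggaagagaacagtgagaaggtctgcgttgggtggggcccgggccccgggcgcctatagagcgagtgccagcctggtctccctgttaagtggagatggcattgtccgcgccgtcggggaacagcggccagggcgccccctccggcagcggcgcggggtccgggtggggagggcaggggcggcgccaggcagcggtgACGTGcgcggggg
Slc2a1 (chr4:119108495-119108710): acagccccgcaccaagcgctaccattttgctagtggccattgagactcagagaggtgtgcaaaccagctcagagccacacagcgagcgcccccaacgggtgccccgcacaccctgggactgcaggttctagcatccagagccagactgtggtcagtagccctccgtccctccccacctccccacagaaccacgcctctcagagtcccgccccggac

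The Slc16a1 region of 250 bases held CACGTG at 200 bases before the gene start, and 76.4% of its bases were G or C. The Slc16a3 region of 236 bases, which lies between the first exon of 1 transcript and the start of other transcripts of that gene, held ACGTG at 27 bases before the start and had 73.3% G or C. The Slc2a1 region of 216 bases held neither and had 63.9% G or C, although its full window held 1 ACGTG further downstream. The full window of Emb, the chaperone that also rose, held neither. Of the 5 full windows, 3 held ACGTG and 1 held CACGTG, while 19.6% and 7.15% of all 32851 promoter windows did. A match of letters is a description of the window and not a bound site.

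Within a family the coding sequences were similar but not near-identical, which matters because reads could otherwise be split between members. Over the aligned coding bases, Slc16a1 and Slc16a7 were identical at 68.6% of positions and Slc2a1 and Slc2a3 at 71.2%, the highest identity in each family. The longest run of bases that Slc16a1 and Slc16a7 shared, 20 bases, is shown because it is the longest stretch in which a read of either could not be told apart.
Slc16a1 and Slc16a7: AGGTTCTCCAGTGCTGTGGG

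In controls at day 7, the Sertoli cell libraries were led by Bsg, followed by Slc16a3, Slc2a1, Emb, Slc16a1, Slc2a3, Slc2a8 and Slc16a7, and no neighbours in this order overlapped. Mean FPKM ran from 503 ± 7.36 (SD, n = 2) for Bsg and 113 ± 1.49 for Slc16a3 down to 0.655 ± 0.148 for Slc16a7. The adult testis libraries labelled control had another order, with Bsg first at 606 ± 41.4 (SD, n = 3), then Slc16a7 at 315 ± 33.4, Slc2a3 at 221 ± 26.3, Slc2a8, Emb, Slc16a1, Slc16a3 and Slc2a1 at 1.82 ± 0.248. Of these neighbours, Slc16a1 and Slc16a3 overlapped. In the adult libraries labelled knockout, Bsg lay above the other 7 genes, and every pair of neighbours below it overlapped. The 2 tables were made separately, so these levels are set side by side without a test.

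**Figure D1:**
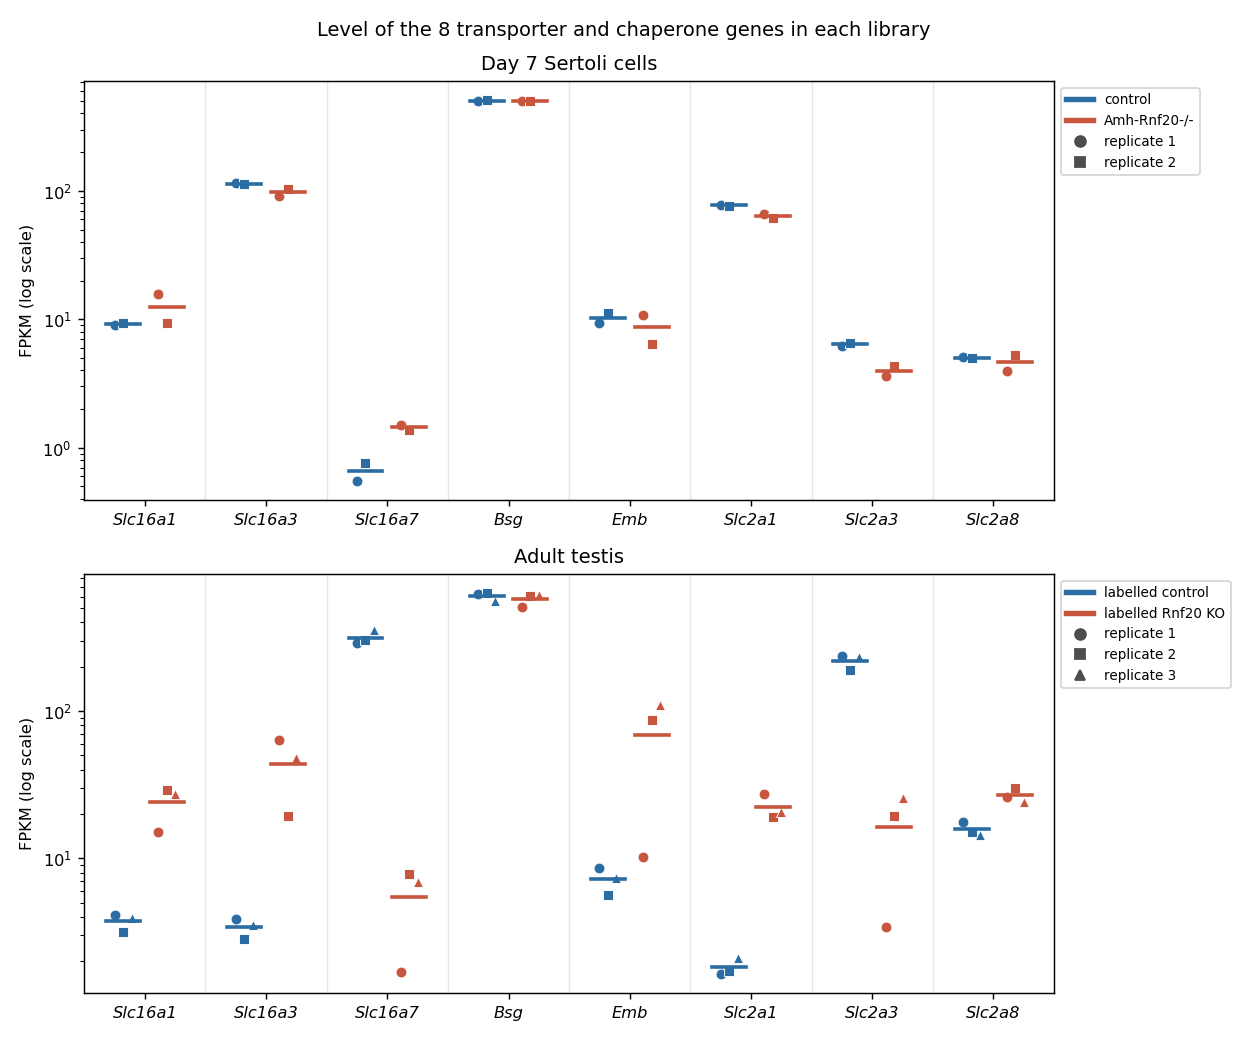
FPKM on a log scale of the 8 genes in each library of day 7 Sertoli cells (top, 2 control and 2 Amh-Rnf20-/-) and adult testis (bottom, 3 labelled control and 3 labelled knockout). Symbols are libraries and lines are group means. In adult testis Slc16a7 and Slc2a3 lie between 190.3 and 353 in the libraries labelled control and between 1.69 and 25.8 in those labelled knockout, while Bsg stays between 509.7 and 636.

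The first comparison asked whether loss of Rnf20 in Sertoli cells changed these carriers in the cells at day 7. None of the 8 members was called by edgeR, and none of the 12880 genes tested was (0% called). At an unadjusted p below 0.05 there were 3 members, Slc16a7 higher and Slc2a1 and Slc2a3 lower, against 15.5% of all genes tested (8.52% higher and 6.99% lower). On TMM-scaled counts the groups did not overlap for 6 members, 3 with Amh-Rnf20-/- above (Slc16a1, Slc16a7 and Bsg) and 3 below (Slc16a3, Slc2a1 and Slc2a3), where 24.8% and 26.1% of all genes were above and below. DESeq2, run as an alternative, called 388 genes higher and 193 lower at day 7, and no member among them.

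Slc16a3 (MCT4, chromosome 11, 120948484 to 120959000 on GRCm38.p6) is the low-affinity carrier that glycolytic cells use to export lactate. Its FPKM was 114 and 112 in the day 7 controls and 90.9 and 103 in the Amh-Rnf20-/- cells. Both Amh-Rnf20-/- libraries lay below both controls, by a log2 fold change of −0.19 ± 0.092 (SE; adjusted p = 0.411). That fold change was −0.10 without the first Amh-Rnf20-/- library and −0.28 without the second. Slc16a1 (MCT1, chromosome 3, 104638664 to 104658462) is the widely expressed carrier that moves lactate in either direction. The control libraries had 9.04 and 9.40 FPKM and the Amh-Rnf20-/- libraries 15.7 and 9.35, so only the first Amh-Rnf20-/- library was high. The log2 fold change was 0.48 ± 0.27 (SE; adjusted p = 0.451), and it was 0.055 (adjusted p = 0.648) without that library and 0.81 (adjusted p = 0.000122) without the second Amh-Rnf20-/- library.

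Slc16a7 (MCT2, chromosome 10, 125219270 to 125389586) is the high-affinity carrier usually tied to lactate uptake. It was close to the limit of this depth, with 43 and 51 counts in the day 7 controls and 91 and 89 in the Amh-Rnf20-/- libraries. As FPKM these were 0.55 and 0.76 against 1.5 and 1.38. Both Amh-Rnf20-/- libraries lay above both controls, with a log2 fold change of 0.97 (SE 0.21), an unadjusted p of 0.00775 and an adjusted p of 0.191 from edgeR. Among the 12880 genes, 452 had a higher log2 fold change.

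The 2 chaperones gave no call at day 7. Bsg (chromosome 10, 79704358 to 79711979), the partner of MCT1 and MCT4, had 498 and 508 FPKM in the controls and 502 and 504 in the Amh-Rnf20-/- cells, with a log2 fold change of 0.04 ± 0.070 (SE; adjusted p = 0.825). The 4 libraries therefore lay within a narrow range, and 34.4% of all genes had a log2 fold change of at most 0.1 in size. Emb (chromosome 13, 117220573 to 117274415), a relative of Bsg that is the preferred partner of MCT2, had 9.43 and 11.2 FPKM in the controls and 10.8 and 6.47 in the Amh-Rnf20-/- cells. Its groups overlapped, and the log2 fold change was −0.21 ± 0.28 (SE; adjusted p = 0.760).

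Among the glucose carriers at day 7, Slc2a1 and Slc2a3 lay lower in both Amh-Rnf20-/- libraries. Slc2a1 (GLUT1, chromosome 4, 119108745 to 119137330), the basal glucose carrier of most cells, had 78.2 and 76.6 FPKM in the controls and 66.3 and 61.7 in the Amh-Rnf20-/- cells. Its log2 fold change was −0.23 (SE 0.083), with an unadjusted p of 0.0419 and an adjusted p of 0.306 from edgeR. Slc2a3 (GLUT3, chromosome 6, 122727809 to 122802363), the high-affinity carrier known from neurons and sperm, had 6.19 and 6.56 FPKM in the controls and 3.61 and 4.30 in the Amh-Rnf20-/- cells. This log2 fold change, −0.66 (SE 0.13, unadjusted p = 0.00579, adjusted p = 0.173 from edgeR), was the lowest of the 8, and 594 of the 12880 genes had a lower one. Slc2a8 (GLUT8, chromosome 2, 32972981 to 32982083), an intracellular hexose carrier abundant in testis, had 5.06 and 5.02 FPKM in the controls and 3.96 and 5.29 in the Amh-Rnf20-/- cells. The groups overlapped, with a log2 fold change of −0.09 ± 0.20 (SE; adjusted p = 0.872).

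Values of Sertoli cell markers differed between the same libraries. Sox9, the transcription factor that defines Sertoli cells, had 41.8 and 39.4 FPKM in the day 7 controls and 10.2 and 25.7 in the Amh-Rnf20-/- cells. Relative to the mean log2 level of the 16 Sertoli cell markers, the difference of Slc2a3 between the groups was 0.03 on the log2 scale (exact two-sided permutation test, p = 1, adjusted p = 1 over 16 tests). On the same relative scale Slc16a7 differed by 1.76 and Slc16a1 by 1.10 (exact permutation test, p = 0.33 for both, the smallest that 2 against 2 libraries allow, adjusted p = 0.410). Slc16a3, Bsg and Slc2a8 differed by 0.49, 0.71 and 0.58 with the same p, and Emb and Slc2a1 by 0.42 and 0.44 with overlapping groups. Of the 8 members, Slc16a3, Emb, Slc2a1, Slc2a3 and Slc2a8 had the opposite sign on this scale to that of their fold changes. With each library left out in turn, Slc16a7 ran from 1.20 to 2.31 and Slc16a1 from 0.23 to 1.97, the lowest without the first and the highest without the second Amh-Rnf20-/- library. Slc16a3 ran from 0.085 to 0.90, Bsg from 0.22 to 1.21 and Slc2a8 from 0.28 to 0.87 between the same fits. Without the first Amh-Rnf20-/- library, edgeR called 4 members at day 7, Slc16a7 higher (0.94 on the log2 scale) and Emb, Slc2a1 and Slc2a3 lower (−0.64, −0.29 and −0.54), while calling 1255 of the 12880 genes higher and 1502 lower. Without the second it called 5, Slc16a1 and Slc16a7 higher (0.81 and 0.999) and Slc16a3, Slc2a1 and Slc2a3 lower (−0.28, −0.18 and −0.78), while calling 2711 genes higher and 2425 lower. In both fits the lone Amh-Rnf20-/- library was assumed to vary like the controls. Without either control library no member was called.

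The second comparison set the adult testes labelled knockout against those labelled control. Of the 8 members, 7 were called by edgeR, 4 higher (Slc16a1, Slc16a3, Emb and Slc2a1) and 3 lower (Slc16a7, Bsg and Slc2a3). On TMM-scaled counts 3 members lay above their controls in every library labelled knockout and 3 below, the groups of Emb and Slc2a8 overlapping, where 85.5% of all genes did not overlap (42.4% above and 43.1% below). Slc16a3, Slc16a7, Slc2a1 and Bsg lay on the opposite side of their controls to that at day 7 on this scale. Of the 12378 genes tested in both tables, 18.3% did so. On FPKM the groups of Bsg overlapped in both tables. Most genes of the table were called as well, 81.5% of 15919 tested (40.9% higher and 40.6% lower). With the thresholds of the study's methods, a change of over 1 in size on the log2 scale at an adjusted p below 0.001, there were 3 members, Slc16a1, Slc16a7 and Slc2a1, against 46.7% of all genes. The scaling matters in this table. The TMM factors were 0.711 to 0.761 in the libraries labelled control and 1.27 to 1.42 in those labelled knockout, and scaling by total counts in place of TMM moved the median over all genes from 0.01 to 0.87 on the log2 scale. With total counts 8613 genes were called higher and 4777 lower, against 6503 and 6466 with TMM.

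Slc16a7, at the bottom of the order at day 7, was the second most abundant member in the adult libraries labelled control. Its FPKM was 290.2, 303 and 353 there and 1.69, 7.85 and 6.87 in the libraries labelled knockout. The lowest control value was far above the highest knockout value, and Slc16a7 fell by 6.45 on the log2 scale (SE 0.46, adjusted p = 6.46e-05), or 87.3-fold. With total-count scaling the log2 fold change was −5.58, and the ratio of the mean FPKM values was 57.7-fold. Of all 15919 genes, 844 had a lower log2 fold change, and 15% had one of −4 or less. Slc2a3 shared this pattern among the glucose carriers, with 238, 190.3 and 233 FPKM in the libraries labelled control and 3.43, 19.4 and 25.8 in those labelled knockout. The first library labelled knockout was the lowest for both genes. Slc2a3 fell by 4.66 on the log2 scale (SE 0.75, adjusted p = 0.00143).

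The other 2 lactate carriers and Slc2a1 had the opposite direction. Slc16a1 had 4.09, 3.15 and 3.95 FPKM in the libraries labelled control and 15.2, 29.3 and 27.3 in those labelled knockout, and rose by a log2 fold change of 1.82 ± 0.25 (SE; adjusted p = 0.000692). Slc16a3 had 3.86, 2.84 and 3.53 FPKM in the libraries labelled control and 64.0, 19.4 and 47.7 in those labelled knockout. These 3 values were spread widely but all lay above the controls, with a log2 difference of 2.84 (SE 0.46, adjusted p = 0.00152). Slc2a1 had the tightest values of the carriers that rose, with 1.64, 1.71 and 2.10 FPKM against 27.2, 19.1 and 20.8. It rose by a log2 fold change of 2.77 ± 0.22 (SE; adjusted p = 9.11e-05).

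The chaperones split, and both values depend on the libraries or the scaling. Emb had 8.65, 5.60 and 7.33 FPKM in the adult libraries labelled control and 10.2, 87.6 and 109 in those labelled knockout, so that the first library labelled knockout lay just above the controls and the other 2 far above them. The log2 fold change was 2.38 ± 0.78 (SE; adjusted p = 0.0280). On TMM-scaled counts the groups overlapped. Without that first library it was 3.02 (adjusted p = 2.28e-07), and without any one of the other 5 libraries the adjusted p was between 0.0706 and 0.0926. Sox9 had 1.20 FPKM in the first library labelled knockout and 9.86 and 12.7 in the other 2, against 2.34, 1.37 and 1.77 in the controls. Its part in the values of Emb was not tested. Exons of Emb overlap those of Gm17509 on the opposite strand over 686 bases, and how the counting handled strand was not stated.

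Bsg had 622, 636 and 559 FPKM in the adult libraries labelled control and 509.7, 605 and 614 in those labelled knockout, and these groups overlapped. After TMM scaling Bsg fell by 0.93 on the log2 scale (SE 0.19, adjusted p = 0.00411), and with total-count scaling the log2 fold change was −0.07 (adjusted p = 0.720). Slc2a8 was the member without a call, at 17.7, 15.1 and 14.5 FPKM against 26.2, 30.2 and 24.2. All 3 libraries labelled knockout lay above the controls on the FPKM scale, as did 54.9% of all genes. After TMM scaling its log2 fold change was −0.08 ± 0.15 (SE; adjusted p = 0.612), and with total-count scaling it was 0.77 (adjusted p = 0.00266). Only Slc2a8 changed direction between TMM, median-ratio and total-count scaling. Bsg kept its sign, though it came close to 0 with total counts.

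**Figure D2:**
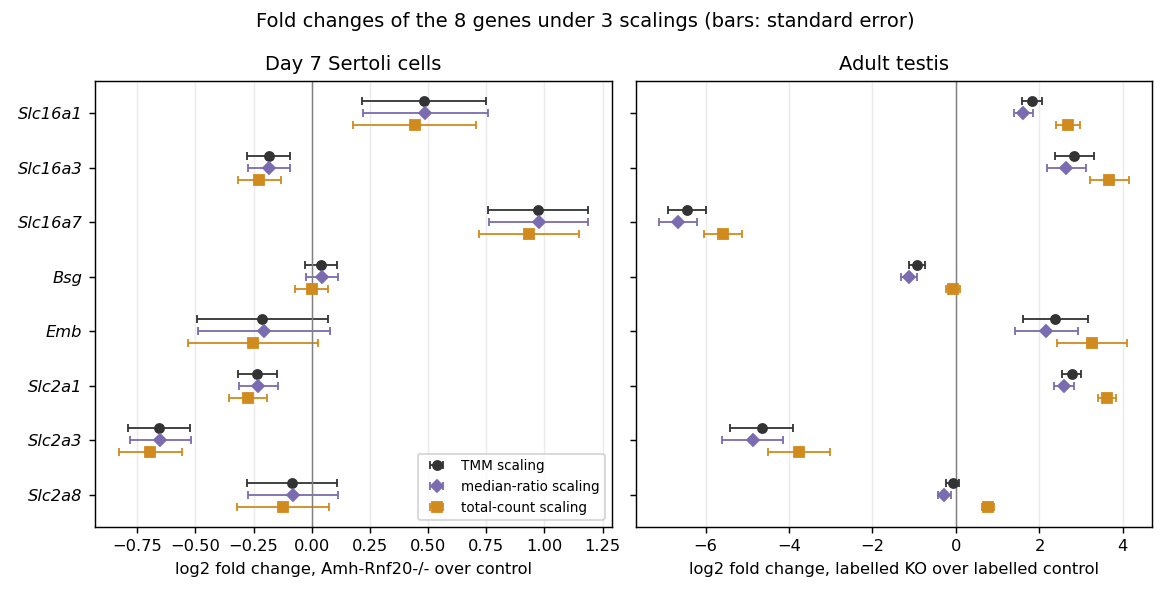
Log2 fold changes (horizontal axis) of the 8 genes under 3 scalings of the libraries, for day 7 Sertoli cells (left) and adult testis (right), with bars for the SE. The right panel shows the shift between scalings, which takes Bsg from −0.93 to −0.07 and Slc2a8 from −0.08 to 0.77 and leaves Slc16a7 and Slc2a3 far below 0.

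Shares within a family need no scaling between libraries. Among the 3 lactate carriers, Slc16a3 held 92.0% of the summed FPKM in the day 7 controls and 87.3% in the Amh-Rnf20-/- cells (means of 2 libraries). In the adult libraries labelled control Slc16a7 held 97.8%, and in those labelled knockout it held 8.12%, with 57.2% for Slc16a3 and 34.7% for Slc16a1. The libraries labelled knockout ran from 2.09% to 13.9% for Slc16a7, 34.3% to 79.1% for Slc16a3 and 18.8% to 51.9% for Slc16a1. In the second of them Slc16a1 held more than Slc16a3. Among the 3 glucose carriers, Slc2a1 held 87.1% and 88.2% at day 7. In the adult libraries labelled control Slc2a3 held 92.6% and Slc2a1 0.768%, and in those labelled knockout Slc2a3 held 23.6%, Slc2a1 35.0% and Slc2a8 41.4%. Slc2a3 ran from 6.04% to 36.4% over the libraries labelled knockout. The first library labelled knockout had the highest share of Slc16a3 and of Slc2a1 of its group.

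**Figure D3:**
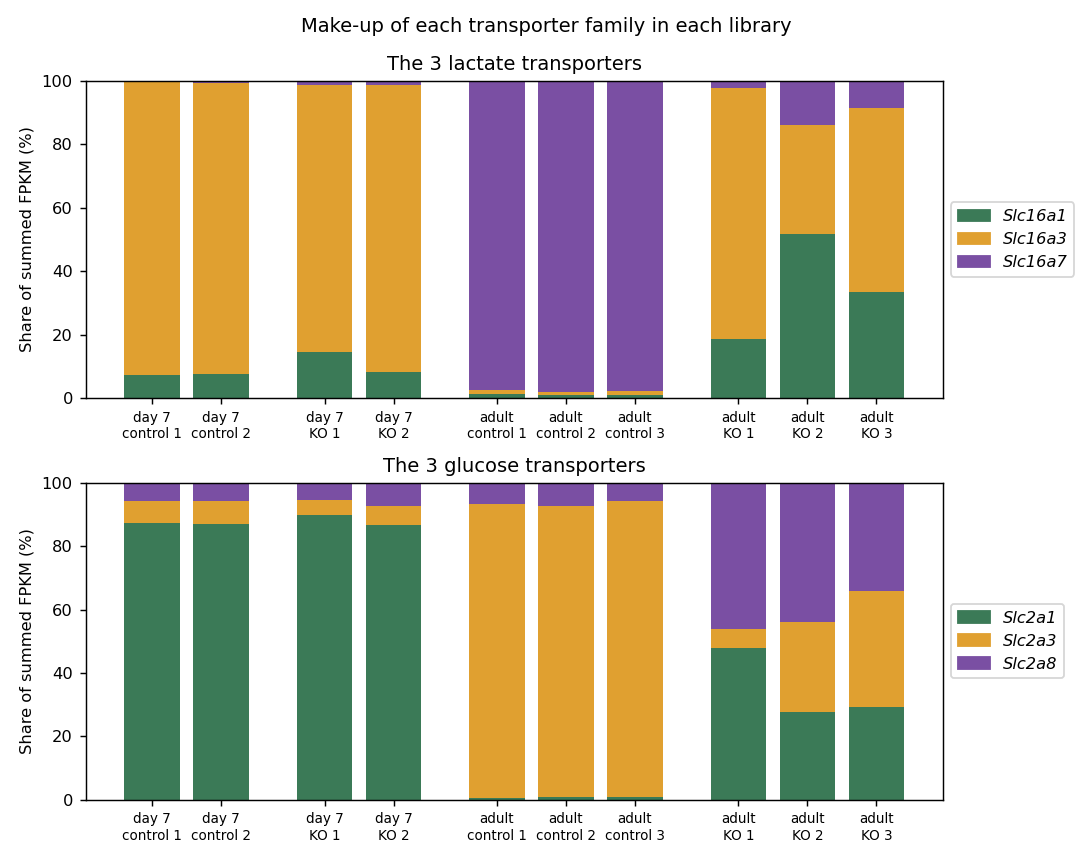
Share of the summed FPKM of 3 lactate carriers (top) and 3 glucose carriers (bottom) held by each gene in each of the 10 libraries, as stacked bars in percent. Slc16a7 and Slc2a3 fill over 90% of the bars of the 3 adult libraries labelled control, and Slc16a3 and Slc2a1 fill most of the 4 day 7 bars.

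Ratios between members were tested over libraries as differences of log2(FPKM + 0.1), in 8 tests. The ratio of Slc16a7 to Slc16a1 was 70.9, 96.1 and 89.4 in the adult libraries labelled control and 0.111, 0.268 and 0.251 in those labelled knockout, a difference of −8.69 on the log2 scale. For Slc2a3 to Slc2a1 the ratios were 145, 111 and 111 against 0.126, 1.01 and 1.24, a difference of −7.72. Bsg to Emb gave 71.9, 114 and 76.2 against 50.1, 6.90 and 5.61, a difference of −2.76. In each of these the groups did not overlap, and each exact permutation p was 0.1, the smallest that 3 against 3 libraries allow (adjusted p = 0.267). Slc16a3 to Slc16a1 was 0.944, 0.902 and 0.894 against 4.22, 0.661 and 1.74, a difference of 0.89 (exact permutation p = 0.4) that was 0.23 without the first and 1.56 without the second library labelled knockout. At day 7 the same 4 ratios differed by 0.65, −0.41, 0.29 and −0.61 in that order, and no exact permutation p could fall below 0.33. With a library left out, Slc16a7 to Slc16a1 ran from 0.34 to 0.96, Slc2a3 to Slc2a1 from −0.58 to −0.23, Bsg to Emb from −0.080 to 0.66 and Slc16a3 to Slc16a1 from −1.08 to −0.15, each between the values without one and without the other Amh-Rnf20-/- library.

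Set against the 16 Sertoli cell markers in the same adult library, Slc16a7 differed by −7.97, Slc2a3 by −6.06 and Bsg by −1.96 on the log2 scale, while Slc2a1 differed by 1.66, Slc16a3 by 1.6 and Slc16a1 by 0.72 (exact permutation p = 0.1 for each, the smallest possible, adjusted p = 0.267). Emb and Slc2a8 overlapped on this scale, with differences of 0.80 and −1.12 (exact permutation p = 0.3 for both). Without the first library labelled knockout these were 0.88 for Slc2a1, 0.62 for Slc16a3, 0.39 for Slc16a1, 1.26 for Emb and −1.73 for Slc2a8. Slc16a3 was 2.32 without the second, and Slc2a8 was −0.63 without the third. The marker list itself was not steady in these testes, since its sum was 754 to 951 FPKM in the libraries labelled control and 3252 to 7111 in those labelled knockout.

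The length that links a gene's estimated count to its FPKM was computed for each member and library, because the authors' tool sets it from the transcripts it assigns reads to. For 7 members this length varied by less than 2% within a table. Slc16a7 was the exception. Its implied length was 2205, 2201 and 2172 bases in the adult libraries labelled control, 4165, 2445 and 2509 bases in those labelled knockout, and 4452, 3824, 3471 and 3643 bases in the day 7 libraries, the first 2 of these being controls. The 3 adult libraries labelled control had the shortest values, and the first adult library labelled knockout, with 112 counts, resembled the day 7 libraries. The lengths outside the adult controls rest on 43 to 311 counts. Exons of Slc16a7 overlap those of Gm47862 on the opposite strand over 179 bases, and those of Slc2a1 overlap Gm12868 over 105 bases.

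**Figure D4:**
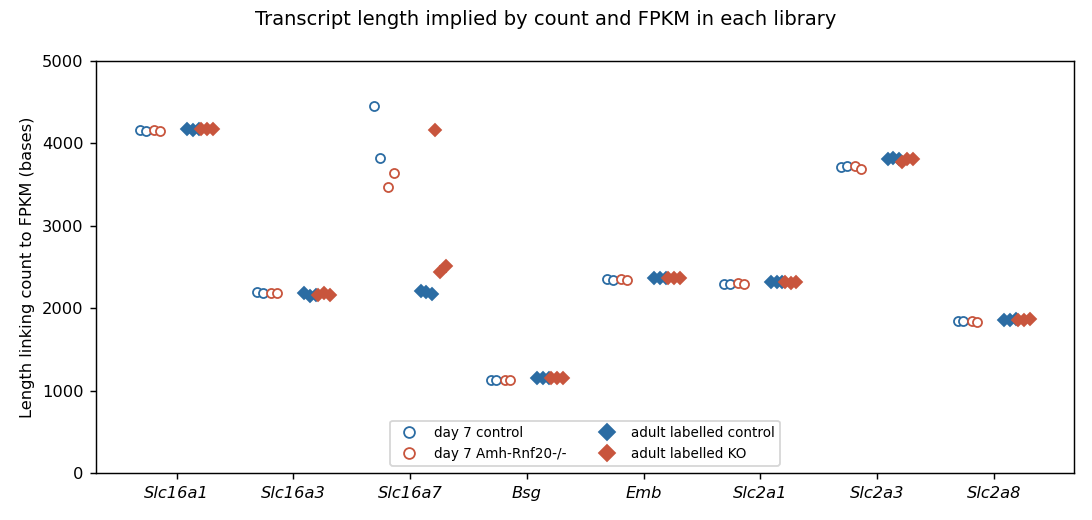
Transcript length in bases implied by the estimated count and the FPKM of each gene, for every library (open circles for day 7, filled diamonds for adult testis). Slc16a7 runs from 2172 to 4452 bases, while each of the other 7 genes keeps almost the same length in all 10 libraries.

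Other carriers of the same families were measured from a list. Of 13 other monocarboxylate and sodium-coupled lactate carriers, 8 were tested in adult testis, and 7 rose and none fell, where 40.9% of all genes tested rose and 40.6% fell. The median log2 fold change was 3.30, beside 0.01 for all genes tested. Among those with the largest changes, Slc16a13 rose by 3.73 and Slc16a11 by 3.58. Slc16a13 had 0.54 to 0.58 FPKM in the libraries labelled control and 11.0 to 18.2 in those labelled knockout. At day 7, 4 of these 13 were tested and none was called, with log2 fold changes of −0.54 for Slc16a13 and 0.58 for Slc16a6, which had the smallest p-values. These 4 carriers had a median of 0.02 on the log2 scale in the full fit. That median fell to −0.20 once the first Amh-Rnf20-/- library was dropped, and rose to 0.21 once the second was.

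Of 11 other glucose carriers, 6 were tested in adult testis, 4 rose and 1 fell, where 40.9% and 40.6% of all genes tested did. The one that fell, Slc2a5 (GLUT5, the fructose carrier), lay above Slc2a3 in each library labelled control, at 258, 274 and 290 FPKM, and had 0.03, 13.7 and 15.5 in those labelled knockout. Its log2 fold change was −5.72 ± 1.62 (SE; adjusted p = 0.0160), and the call was lost without the second or the third library labelled knockout (adjusted p = 0.0517 and 0.0543). Slc2a4 (GLUT4, the insulin-responsive carrier) had 0.18 to 0.39 FPKM in the libraries labelled control and 6.17 to 14.6 in those labelled knockout. Slc2a10 had 0.04 to 0.06 and 0.52 to 1.92. Their log2 fold changes, 4.13 and 3.73, rest on controls near 0 and give no exact size. At day 7, 4 were tested with none called, and Slc2a6, Slc2a10 and Slc2a4 had the smallest p, with log2 fold changes of 0.81, 0.36 and 0.88. The 4 tested glucose carriers had a median of 0.64 on the log2 scale at day 7. Dropping the first Amh-Rnf20-/- library changed this median to 0.51, and dropping the second changed it to 0.84. Nptn, a relative of Bsg and Emb, rose by 1.67 in adult testis and had a log2 fold change of 0.25 (adjusted p = 0.527) at day 7, which was 0.0099 without the first Amh-Rnf20-/- library and 0.45 (adjusted p = 0.000281) without the second.

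The enzymes that make and use lactate were taken from separate lists. Of 15 widely expressed genes of glycolysis and lactate formation, 6 rose and 7 fell in adult testis, where 40.9% of all genes tested rose and 40.6% fell, and with total-count scaling 8 rose and 5 fell. The largest log2 fold changes were −5.25 for Hk1, a hexokinase that starts glycolysis, −3.53 for Ldha, a lactate dehydrogenase subunit, and −2.84 for Pfkp, a phosphofructokinase. Ldhb, the other common subunit of lactate dehydrogenase, rose by 2.25, from 139, 100.1 and 84.9 FPKM to 659.9, 1058 and 1096. All 8 genes of a second list fell, which holds isoforms known from germ cells and Pgam2, known from muscle, with a median log2 fold change of −6.35, led by Gapdhs (−9.06), Pgk2 (−7.33) and Aldoart1 (−7.00), and 5 of them were called without the second library labelled knockout, 6 without the third and 7 without any one of the controls. Ldhc, the germ cell lactate dehydrogenase, had 3908, 3857 and 3746 FPKM in the libraries labelled control and 0.07, 171 and 205 in those labelled knockout. Slc16a7 and Slc2a3 were likewise lowest in that first library.

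At day 7, none of the 15 widely expressed genes was called, and 13 of them had a log2 fold change below 0, with a median of −0.17 beside −0.00 for all genes. The smallest p-values belonged to Hk2 (−0.62), Ldhb (−0.73) and Pfkl (−0.37). Ldhb had 299 and 296 FPKM in the controls and 129 and 219.8 in the Amh-Rnf20-/- cells. Of the 8 isoforms of the second list, 1 was tested at day 7, Pgam2, the muscle-type phosphoglycerate mutase, with a log2 difference of 1.6 (adjusted p = 0.458) that ran from 0.76 without the second control to 3.79 without the first. The median log2 fold change of the 15 widely expressed genes was −0.06 without the first Amh-Rnf20-/- library and −0.28 without the second.

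Of 15 regulators of glucose uptake and glycolytic genes, 11 rose and 3 fell in adult testis, beside 40.9% and 40.6% of all genes tested, with Myc (4.63), Mpc2 (−3.53) and Txnip (3.51) the furthest from 0. Among the 11, Myc and Prkaa2 had controls of 0.09 to 0.17 and 0.12 to 0.19 FPKM. Both passed the filter of 0.5 FPKM only through the libraries labelled knockout, which set their direction. The 4.63 of Myc gives no exact size. Txnip, a protein that restrains glucose uptake, had 22.5, 21.4 and 21.4 FPKM in the libraries labelled control and 657, 387 and 279 in those labelled knockout. Mpc2 is a subunit of the mitochondrial pyruvate carrier, and its partner Mpc1 rose by 1.35. The count of regulators that fell was 1 without the second library labelled knockout and without the second or the third control. With total-count scaling 12 rose and 1 fell, and Prkaa1 changed sign from −0.45 to 0.41. Hif1a, a hypoxia-inducible factor, had 3.67, 2.62 and 3.51 FPKM against 18.7, 30.5 and 33.0, a log2 fold change of 2.18 (adjusted p = 0.000210). At day 7 none of the 15 was called, and Epas1 (1.07), Prkaa2 (−0.62) and Pdk1 (−0.57) had the smallest p-values. The median over the 15 regulators at day 7 was −0.03 on the log2 scale with every library kept. Leaving out the first Amh-Rnf20-/- library gave −0.07, beside −0.0025 for all genes tested. Leaving out the second gave 0.08, beside −0.013.

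For each member, the gene with the most similar profile over the 6 adult libraries was sought among 14814 tested genes, by the root mean square distance of log2(FPKM + 0.1) after centring each gene on its own mean. Bsg was closest to Atp6v1g1 (distance 0.0354), Slc2a1 to Clec2d (0.0603), Slc16a7 to St8sia3 (0.0768), Slc16a1 to Bmt2 (0.0770) and Slc2a8 to Gng10 (0.0773). Slc2a3 was closest to Ccdc180 (0.0978), Emb to Me2 (0.159) and Slc16a3 to Lvrn (0.167). Me2, the mitochondrial malic enzyme, had 2.12, 1.94 and 2.28 FPKM in the libraries labelled control and 3.29, 29.7 and 33.1 in those labelled knockout, with the same low first library as Emb. St8sia3 had 0, 0.31 and 0.25 FPKM in the libraries labelled knockout and Ccdc180 had 0.08, 0.85 and 1.13, values near the pseudocount of 0.1 in part. All points share the same 6 libraries, so the distances describe these libraries only.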

How the data were processed

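Groups were compared within each of 2 tables, one of Sertoli cells at day 7 (2 control, 2 Amh-Rnf20-/-) and one of adult testis (3 and 3 by label), which were made separately. Reads were aligned by the authors with HISAT (genome GRCm38.p6) and Bowtie2 (reference genes), and the deposited tables hold estimated counts, FPKM values from RSEM and TPM values. The aligners and genome are given in the labels of all libraries, while RSEM is named in the study's methods for day 7 and was taken to hold for the adult table. Between 10.7% and 13.2% of genes per library had a count that was not whole, and the estimated counts deposited were rounded. The deposited TPM columns were not used.

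The tests took genes reaching an FPKM of 0.5 in 2 (day 7) or 3 (adult) libraries, 12880 and 15919, in edgeR 4.0.16 (quasi-likelihood, TMM, Benjamini-Hochberg), in R 4.3.3. Each SE was obtained from the log2 fold change and its F statistic. DESeq2 1.42.0, limma 3.58.1, other scalings, filters and thresholds, the replicate block and each library left out were alternatives. Ratios and levels relative to Sertoli cell markers used a pseudocount of 0.1 and exact permutation tests. The fits were tested on simulated data.

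The members and the lists were chosen with earlier results of these data known. Named genes are the members, Rnf20, markers, per list the 3 genes with the largest change among those called (with none, the 3 smallest p), and the most similar gene of each member. Hif1a, Ldhb and Ldhc in adult testis, Mpc1, Prkaa1, and Me2 with its values, were singled out after their values were seen. Some items under this rule are not reported here. Gene coordinates and promoter windows are from RefSeq, coding sequences and exons from GENCODE vM21. Tool versions of the authors and strand handling were not given in the sources used here.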

Additional observations from a re-analysis of the deposited data

Results flagged for a closer look

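For 3 members the libraries of the knockout group lay on opposite sides of their controls in the day 7 cells and in the adult testes, on FPKM and on TMM-scaled counts. On TMM-scaled counts alone Bsg also lay on opposite sides (log2 fold changes of 0.04 and −0.93), while its groups overlapped on FPKM in both tables. By TMM-scaled counts alone, 18.3% of the 12378 genes tested in both tables lay on opposite sides. Slc16a3 had a log2 fold change of −0.19 at day 7, with both Amh-Rnf20-/- libraries below both controls, and of 2.84 in adult testis, with all 3 libraries labelled knockout above. Slc2a1 gave −0.23 and 2.77 with the same arrangement. Slc16a7 went the other way, with 0.97 at day 7 and −6.45 in adult testis. Relative to the Sertoli cell markers, Slc16a7 kept opposite signs, with 1.76 at day 7 and −7.97 in adult testis. On that scale Slc16a3 differed by 0.49 at day 7 (0.085 to 0.90 with a library left out) and by 1.6 in adult testis, and Slc2a1 by 0.44 at day 7, with overlapping groups and −0.11 to 0.99 with a library left out, and by 1.66 in adult testis. The difference between the tables was not tested, since passaged adherent cells and whole testis were measured in separately made tables. With 2 or 3 libraries in a group no library could be tested as an outlier.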

How the results depend on the processing

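Slc16a1, Slc16a3, Slc16a7, Slc2a1 and Slc2a3 kept their direction and their call in adult testis under all 14 alternatives. The adult count of called members was 6 to 7 with a library left out and 3 with the study's thresholds. At day 7 it was 0 under every alternative that kept all 4 libraries, and with a library left out 0 to 5 members were called, 0 to 2 of them higher and 0 to 3 lower. Leaving out a day 7 library left an arm with 1 library, assumed to vary like the others.

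Direction changed in these cases, and the cause was not tested. Slc2a8 in adult testis was 0.77 with total-count scaling, 0.77 and 0.73 with limma on log2(FPKM + 0.1) and log2(FPKM + 1), and ran from −0.17 to 0.11 with a library left out, being 0.04 without the first and 0.11 without the third library labelled knockout. At day 7 Slc2a8 was 0.10 without the first Amh-Rnf20-/- library (range −0.30 to 0.10), Emb was 0.12 without the second (range −0.64 to 0.12), and Bsg was −5.61e-05 with total counts and −0.000415 and −0.000414 with limma. The day 7 ratio of Bsg to Emb ran from −0.080 to 0.66 with a library left out. Relative to Sertoli cell markers at day 7, Slc2a3 was −0.11 with a marker list without Amh, Fshr and Cldn11 and ran from −0.34 to 0.41 with a library left out, Emb from −0.44 to 1.29 and Slc2a1 from −0.11 to 0.99.

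With the replicate number as a block, edgeR called 0 members at day 7 and 6 in adult testis, where Emb had a log2 fold change of 1.97 (adjusted p = 0.138, against 2.28e-07 to 0.138 over its alternatives). Same-numbered libraries deviated together with correlations of 0.03 at day 7 and 0.01 to 0.03 in adult testis, which shows no pairing by number. With 2 libraries per group at day 7 the deviations mirror each other, so that value cannot decide whether libraries were paired. Slc16a7 rests on 43 to 91 counts per library at day 7.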
